A study of Mus musculus with 21 samples.

Results

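The core genes of the circadian clock were followed as nascent RNA in mouse cortical cultures whose network activity was raised with bicuculline, with or without the compound MM401. The 10 genes were Per1, Per2, Per3, Cry1, Cry2, Nr1d1, Nr1d2, Dbp, Bhlhe40 and Clock, chosen by their symbols. The choice was made with earlier results of these data known. All 10 were present among the 24984 genes of the count table, and all 10 passed the filter on low counts, which left 16959 genes to test. By edgeR in DMSO, 7 of the 10 rose and 2 fell after 1 h of bicuculline, and 5 rose and none fell after 4 h. Of all 16959 genes, 3396 rose and 4161 fell at 1 h, and 4014 rose and 4330 fell at 4 h. In MM401, 7 clock genes rose and 1 fell at 1 h, and 8 rose and 1 fell at 4 h. With plain library totals, in DMSO 5 rose and 2 fell at 1 h, and 3 rose and 2 fell at 4 h. Against water for 4 h in DMSO, Per1 was 3.23-fold higher at 1 h and Cry1 was 2.07-fold higher at 4 h. By edgeR on the 20 libraries used, no clock gene differed past the threshold between MM401 and DMSO. DESeq2 called Per3 in water at 4 h, and edgeR without DMSO water 4 h replicate 1 called Per3 and Bhlhe40 there.

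The assay was BrU-seq, in which living cells are given bromouridine, use it in new transcripts, and these tagged transcripts are pulled out and sequenced. The readout is therefore recent transcription, introns included, and not the standing pool of mRNA. Primary cultures of cortex from CD1 mice of mixed sex were used at day 17 in vitro, after a preincubation of 30 min in 25 µM MM401 or in its solvent DMSO. MM401 blocks the contact of the histone methyltransferase MLL1 with its partner WDR5. Every culture was labelled with 2 mM bromouridine through the last 30 min. In DMSO there were 3 groups: bicuculline (as the methiodide) at 40 µM for 1 h, bicuculline for 4 h, and water, its vehicle, for 4 h. In MM401 there were 4 groups: bicuculline for 1 h, bicuculline for 4 h, water for 1 h and water for 4 h. The 21 libraries held no group of DMSO with water for 1 h, so bicuculline for 1 h in DMSO was set against water for 4 h. Each group had 3 replicates, but 1 library of MM401 with water at 4 h was left out for its low total, which left 2 in that group and 20 libraries in all. Bicuculline blocks GABA-A receptors, so that inhibition falls and the neurons of a culture fire in bursts.

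The clock runs on a loop of transcription. CLOCK and its partner BMAL1 (gene Arntl) bind E-boxes and switch on the Per and Cry genes, the nuclear receptors Nr1d1 and Nr1d2 (REV-ERB alpha and beta), and the output genes Dbp and Bhlhe40; PER and CRY proteins then return to the nucleus and block CLOCK and BMAL1, and the REV-ERB proteins repress Arntl. Outside stimuli enter the loop mainly through Per1 and Per2, which neuronal activity, calcium and cAMP induce through the factor CREB as in the light response of the suprachiasmatic nucleus. In cortex, as in most tissues, the same genes oscillate in single cells, and Per1 and Bhlhe40 also belong to the fast response to activity.

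E-boxes, cAMP response elements (CRE) and D-boxes are the sequence elements through which these inputs are known to act. The promoters of 4 of the genes are shown: Per1, Cry1 and Cry2 because they rose most at 1 h in DMSO, and Per3 because it was lower there while the other Per genes rose. Each line gives 250 bases before and 50 bases after a transcript start from RefSeq on GRCm38.p6, the mm10 assembly, read 5′ to 3′ on the gene's strand. Capitals mark the E-box CACGTG, its variant CACGTT, which reads AACGTG on the other strand, the CRE core TGACG, which reads CGTCA on the other strand, and the D-box forms TTATGTAA and TTATGCAA. Both Per1 starts of the table are shown.
Per1, first start, chr11:69098699-69098998, plus strand: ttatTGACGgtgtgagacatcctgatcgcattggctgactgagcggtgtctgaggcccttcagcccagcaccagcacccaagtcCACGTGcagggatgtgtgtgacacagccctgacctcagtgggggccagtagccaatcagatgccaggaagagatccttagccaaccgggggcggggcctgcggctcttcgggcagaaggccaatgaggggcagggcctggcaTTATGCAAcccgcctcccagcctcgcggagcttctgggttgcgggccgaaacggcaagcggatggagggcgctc
Per1, second start, chr11:69099902-69100201, plus strand: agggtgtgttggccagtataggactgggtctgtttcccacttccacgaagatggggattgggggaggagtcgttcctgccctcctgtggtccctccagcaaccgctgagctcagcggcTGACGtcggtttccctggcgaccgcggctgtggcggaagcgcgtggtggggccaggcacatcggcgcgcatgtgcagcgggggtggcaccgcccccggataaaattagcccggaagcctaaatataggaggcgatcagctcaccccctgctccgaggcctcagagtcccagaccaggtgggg
Cry1, chr10:85185005-85185304, minus strand: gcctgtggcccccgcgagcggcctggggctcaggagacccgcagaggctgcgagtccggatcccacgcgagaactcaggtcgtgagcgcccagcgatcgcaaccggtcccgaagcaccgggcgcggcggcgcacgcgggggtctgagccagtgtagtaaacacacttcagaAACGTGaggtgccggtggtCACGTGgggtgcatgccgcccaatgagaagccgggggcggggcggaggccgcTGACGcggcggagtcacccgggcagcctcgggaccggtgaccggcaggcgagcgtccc
Cry2, chr2:92434020-92434319, minus strand: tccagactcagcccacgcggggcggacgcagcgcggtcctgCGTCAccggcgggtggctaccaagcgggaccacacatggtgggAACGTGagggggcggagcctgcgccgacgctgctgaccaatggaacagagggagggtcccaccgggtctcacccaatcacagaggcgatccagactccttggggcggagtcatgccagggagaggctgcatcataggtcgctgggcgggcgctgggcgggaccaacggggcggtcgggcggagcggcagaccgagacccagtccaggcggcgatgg
Per3, chr4:151044616-151044915, minus strand: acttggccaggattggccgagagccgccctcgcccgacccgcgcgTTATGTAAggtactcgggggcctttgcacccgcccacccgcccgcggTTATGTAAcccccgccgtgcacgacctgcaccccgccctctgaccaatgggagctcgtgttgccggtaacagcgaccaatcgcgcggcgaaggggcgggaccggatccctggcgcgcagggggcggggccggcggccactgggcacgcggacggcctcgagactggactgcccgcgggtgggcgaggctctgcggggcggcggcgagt

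Promoter entries were found for 8 of the 10 genes in the RefSeq table, with 11 promoters in all; Per2 and Bhlhe40 had none and are named only. Both strands were searched, and positions are those of the first base of the match relative to the start. CACGTG stood in 2 of the 11, at -166 in the first Per1 promoter and at -60 in Cry1, and in 7.15% of the 32851 promoters of all genes. CACGTT stood in Cry1 at -79, in Cry2 at -166 and in Nr1d1 at -28, against 4.68% of all promoters. TGACG stood in 4 of the 11, both Per1 promoters (-246 and -132), Cry1 (-8) and Cry2 (-209), against 20.8% of all; the full palindrome TGACGTCA stood in none of the 11 and in 1.79% of all. The D-box TTATGTAA occurred at -205 and -158 in Per3 (0.938% of all promoters hold it), and TTATGCAA at -24 in the first Per1 promoter (0.743% of all). The D-box TTACGTAA and the ROR element (REV-ERB and ROR binding site) were in none of the 11, against 0.119% and 0.219% of all. A match describes these letters in this window and does not show that a factor was bound.

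The 20 libraries held 49886348 to 87939384 counts, and replicates of a group differed by more than counting noise. Levels are CPM (counts per 1000000 counts of the library) scaled by the trimmed mean of M values (TMM), and tests are edgeR's quasi-likelihood tests on the counts, adjusted by Benjamini-Hochberg over all 16959 genes. The 10 genes held up to 13920 and never under 307 counts in a library, with the lowest count in Dbp. The labels name cortical cultures only. Summed markers of neurons (Rbfox3, Map2, Tubb3, Snap25 and Syt1) ran from 4523 to 7194 CPM and those of endothelial cells from 1.44 to 3.01 CPM, and none of the markers was at 0 in all libraries. The sums were not scaled for gene length and do not measure numbers of cells. Among the neuron markers Syt1 held 1991 to 3097 CPM and Tubb3 13.1 to 21.7 CPM. The GABA neuron markers Gad1, Gad2 and Slc32a1 summed to 317 to 378 CPM in the 8 water libraries and 483 to 675 CPM in the 12 bicuculline libraries. Neuron markers were 4523 to 5673 CPM in water and 5350 to 7194 CPM in bicuculline. Oligodendrocyte lineage markers were 131 to 151 CPM in water and 157 to 181 CPM in bicuculline. Astrocyte markers were 414 to 696 CPM in water and 569 to 846 CPM in bicuculline, the highest at 1 h (717 to 823 CPM in DMSO and 777 to 846 CPM in MM401). Excitatory neuron markers were 242 to 283 CPM in water and 217 to 293 CPM in bicuculline; in MM401 at 4 h they were lower in bicuculline without overlap (221 to 255 against 264 to 279 CPM). At 4 h of bicuculline microglia markers were higher without overlap, at 28.3 to 33.1 against 23.4 to 27.8 CPM in DMSO and 31.9 to 36.1 against 23.0 to 25.7 CPM in MM401. Fibroblast and mural cell markers were so too, at 9.23 to 10.4 against 8.14 to 8.81 CPM in DMSO and 8.85 to 10.5 against 7.21 to 7.36 CPM in MM401. The part of these differences in the clock gene results was not tested. In bulk cultures more cells of a type and more RNA per cell cannot be told apart.

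In DMSO with water, the 10 genes can be set in order only per length of gene. Bhlhe40 was densest, at 5.66 ± 0.896 CPM per kb of gene span (SD, n = 3), with all 3 libraries above those of any other member. Per1 (2.62 ± 0.194) and Cry2 (2.50 ± 0.0851) overlapped each other. Nr1d1 followed at 2.05 ± 0.154 CPM per kb, above Clock at 1.73 ± 0.119. Clock and Nr1d2 (1.54 ± 0.0788) overlapped by 1 library, and Dbp (1.39 ± 0.224) overlapped with Nr1d2 above it and Per2 (1.21 ± 0.0657) below it. Per3 lay below Per2 at 1.06 ± 0.0781 CPM per kb, without overlap, and Cry1 was lowest at 0.796 ± 0.0433. After 1 h of bicuculline in DMSO, Per1 stood at 8.49 ± 0.609 CPM per kb and Bhlhe40 at 8.03 ± 0.781, and their libraries overlapped.

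**Figure D1:**
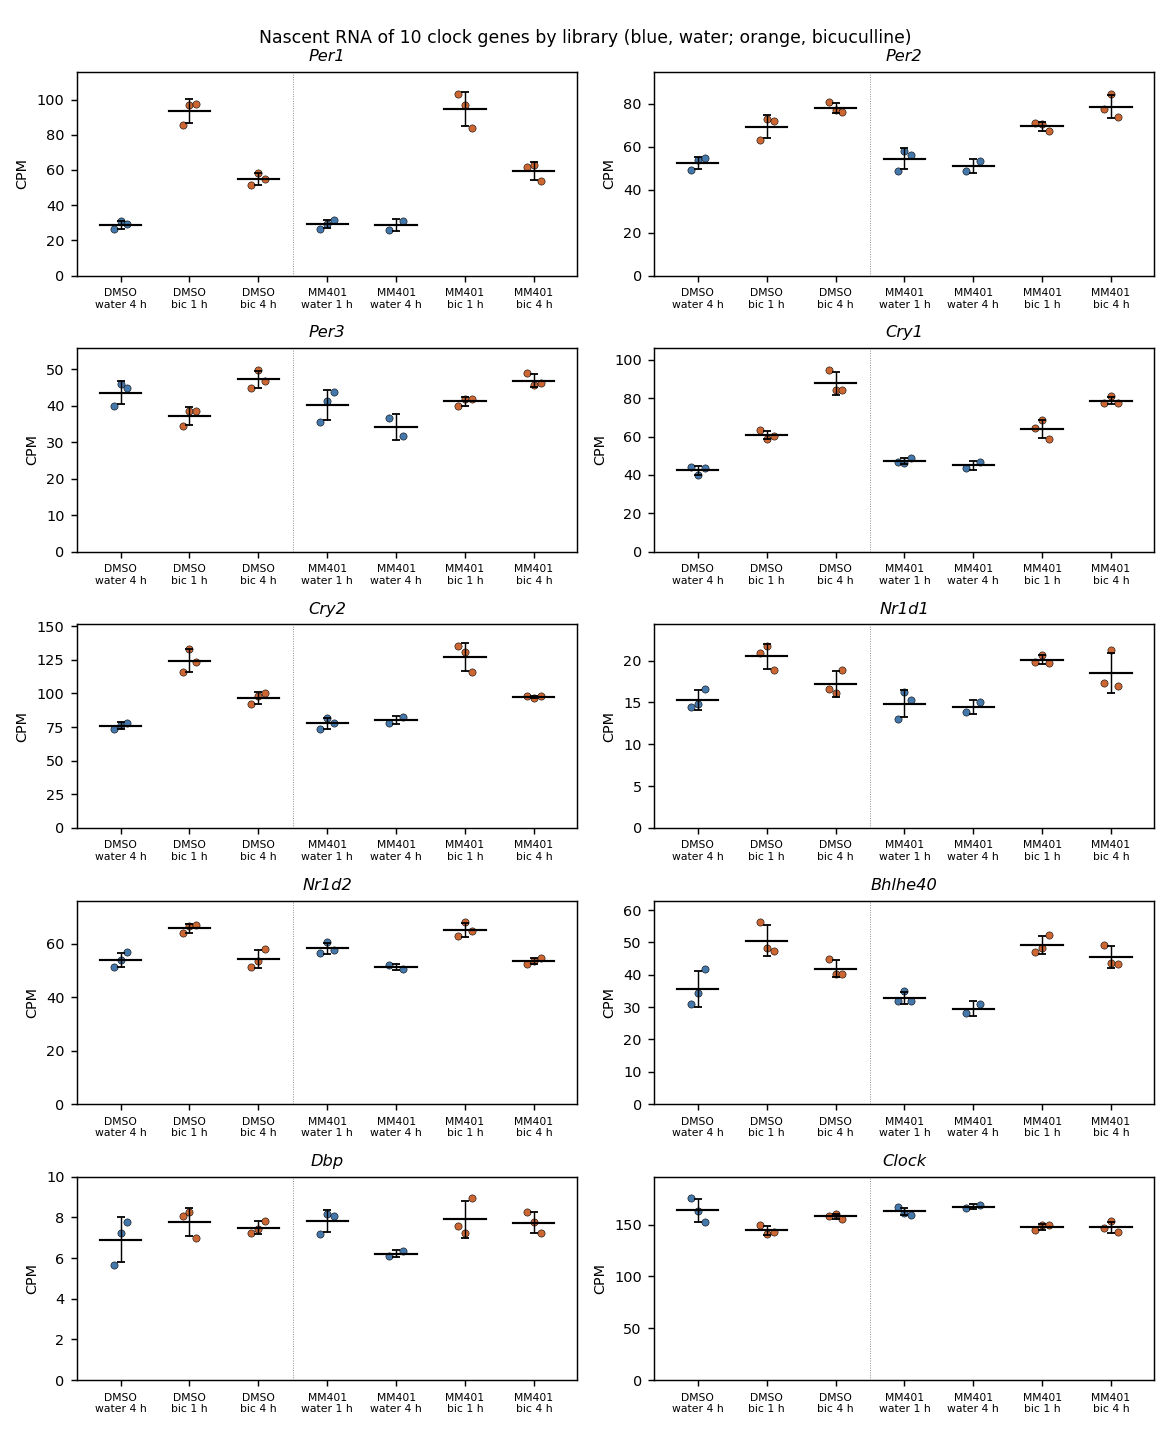
Nascent RNA of the 10 clock genes in CPM (y axis, from 0) in each library of the 7 groups (x axis); blue points are water and orange points bicuculline libraries, lines are group means and bars 1 SD. Per1 stands between 84.2 and 103 CPM at 1 h of bicuculline against 26.1 to 31.7 CPM in every water library.

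Per1, the PER protein gene that responds first to stimuli, lies at chr11:69098948-69109957 on the plus strand (mm10). It stood at 26.6, 30.8 and 29.2 CPM in the 3 DMSO libraries with water, at 85.7, 97.0 and 97.6 CPM after 1 h of bicuculline, and at 51.3, 58.6 and 54.8 CPM after 4 h. Every library at 1 h lay above every library at 4 h, and those above every water library. The rise over water was 1.69 ± 0.091 on the log2 scale at 1 h (edgeR adjusted p = 4.98e-12) and 0.93 ± 0.090 at 4 h (edgeR adjusted p = 3.05e-08). By size of change, Per1 at 1 h was at the 98.9th percentile of all tested genes. With MM401 the groups stood in the same order: 26.7, 29.3 and 31.7 CPM in water at 1 h, 26.1 and 30.9 CPM in water at 4 h, 103, 96.9 and 84.2 CPM at 1 h of bicuculline, and 61.6, 63.1 and 53.5 CPM at 4 h. Per1 rose there by 1.70 ± 0.091 at 1 h (edgeR adjusted p = 5.01e-12) and by 1.06 ± 0.104 at 4 h (edgeR adjusted p = 6.25e-08). From 1 h to 4 h of bicuculline it fell by 0.77 on the log2 scale in DMSO (edgeR adjusted p = 7.05e-07) and by 0.67 in MM401 (edgeR adjusted p = 4.39e-06).

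Per2, whose protein is the main limiting partner of the CRY proteins, lies at chr1:91415981-91459328 on the minus strand. Its nascent RNA rose at both times, and its 4 h libraries all lay above its 1 h libraries in DMSO. In DMSO it stood at 49.2, 53.6 and 54.5 CPM in water, at 63.0, 73.0 and 71.9 CPM at 1 h and at 80.7, 77.2 and 76.3 CPM at 4 h. None of the bicuculline libraries reached down to a water library. The rise was 0.40 ± 0.071 at 1 h (edgeR adjusted p = 8.46e-05) and 0.57 ± 0.071 at 4 h (edgeR adjusted p = 6.72e-07). In MM401 it stood at 48.7, 58.0 and 56.1 CPM in water and 71.0, 70.5 and 67.1 CPM in bicuculline at 1 h, and at 48.8 and 53.5 CPM against 77.7, 84.6 and 73.6 CPM at 4 h. Water and bicuculline did not overlap at either time. It rose there by 0.36 ± 0.071 at 1 h and 0.62 ± 0.080 at 4 h (edgeR adjusted p = 0.00035 and 2.15e-06). The step from 1 h to 4 h was 0.17 in DMSO and 0.18 in MM401, and neither passed the threshold (edgeR adjusted p = 0.0636 and 0.0564). It passed in DMSO without 1 h replicate 2 (edgeR adjusted p = 0.0474), and in MM401 without 4 h replicate 3 or with the plain library total (edgeR adjusted p = 0.0352 and 0.0216).

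Per3, a paralog that is less needed for the rhythm itself, lies at chr4:151003654-151044665 on the minus strand and did not follow Per1 and Per2. In DMSO its values were 40.0, 46.0 and 45.0 CPM in water, 34.5, 38.6 and 38.6 CPM at 1 h, and 45.0, 49.9 and 46.9 CPM at 4 h. The 1 h libraries were the lowest of these 9 and the 4 h libraries overlapped with water. Per3 fell by 0.23 at 1 h (SE 0.076, edgeR adjusted p = 0.0164), a call that was lost without bicuculline 1 h replicate 1 or water replicate 2 or 3 (edgeR adjusted p = 0.0915, 0.122 and 0.0712). It was also lost with only the groups compared in the fit, or with all 21 libraries, the one of low total included (edgeR adjusted p = 0.0603 and 0.0899). From 1 h to 4 h it rose by 0.34 ± 0.076 (edgeR adjusted p = 0.00107). With MM401 it stood at 35.7, 41.5 and 43.7 CPM in water at 1 h and 39.8, 41.9 and 42.0 CPM in bicuculline at 1 h, which overlapped (0.03 ± 0.076). At 4 h with MM401 it was 36.8 and 31.7 CPM in water against 49.0, 45.7 and 46.2 CPM in bicuculline, a rise of 0.46 ± 0.086 (edgeR adjusted p = 0.000191).

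Cry1, one of the 2 cryptochrome genes whose proteins are the strongest repressors of the loop, lies at chr10:85131699-85185054 on the minus strand and rose most at 4 h. In DMSO it stood at 44.0, 39.8 and 43.6 CPM in water, at 63.3, 58.9 and 60.3 CPM at 1 h, and at 94.6, 84.3 and 84.4 CPM at 4 h. The 3 groups did not overlap. The rise was 0.52 ± 0.062 at 1 h and 1.05 ± 0.062 at 4 h (edgeR adjusted p = 6.95e-07 and 1.08e-11), and the step from 1 h to 4 h was 0.53 ± 0.062 (edgeR adjusted p = 6.18e-07). By size of change Cry1 was at the 94.4th percentile of all tested genes at 4 h. In MM401 it went from 46.7, 46.1 and 48.9 CPM (water, 1 h) and 43.4 and 46.7 CPM (water, 4 h) to 64.2, 68.4 and 58.8 CPM at 1 h and 77.7, 80.9 and 77.7 CPM at 4 h. The order of the groups was the one in DMSO, again without overlap between water, 1 h and 4 h. The rises were 0.43 ± 0.062 and 0.81 ± 0.071 (edgeR adjusted p = 8.82e-06 and 9.27e-09), with a step of 0.30 ± 0.062 between the times (edgeR adjusted p = 0.000538).

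Cry2, the other cryptochrome gene, at chr2:92403646-92434069 on the minus strand, had the opposite time course. In DMSO it stood at 73.2, 76.6 and 78.3 CPM in water, at 116, 133 and 123 CPM at 1 h and at 91.9, 98.2 and 101 CPM at 4 h. All 1 h libraries lay above all 4 h libraries, and those above all water libraries. The rise was 0.71 ± 0.062 at 1 h (edgeR adjusted p = 7.72e-09) and 0.35 ± 0.062 at 4 h (edgeR adjusted p = 7.66e-05), and the change between the times was -0.36 ± 0.062 (edgeR adjusted p = 9.4e-05). In MM401 the log2 changes were 0.71 ± 0.063 at 1 h and 0.28 ± 0.070 at 4 h (edgeR adjusted p = 7.37e-09 and 0.0028), the second of them lost without water 4 h replicate 1 (edgeR adjusted p = 0.0637). In MM401 with water it stood at 73.8, 81.6 and 77.6 CPM at 1 h and 78.3 and 82.5 CPM at 4 h, and with bicuculline at 135, 131 and 116 CPM and 97.8, 96.7 and 97.9 CPM. Again the 1 h libraries were highest, and no bicuculline library overlapped with water. The change between the times was -0.38 ± 0.062 (edgeR adjusted p = 4.74e-05). Cry2 shares 23418 bases, 77.0% of its span, with D930015M05Rik on the opposite strand. That gene held 332 counts over all 21 libraries against 125784 for Cry2, and the use of strand in the counting was not stated.

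Nr1d1 and Nr1d2 code for the REV-ERB receptors, which repress Arntl and many metabolic genes. Nr1d1 (chr11:98767931-98775377, minus strand) stood in DMSO at 14.5, 14.8 and 16.6 CPM in water, 20.9, 21.7 and 18.8 CPM at 1 h and 16.6, 16.1 and 18.9 CPM at 4 h. Only the 1 h group was clear of water. It rose by 0.42 ± 0.094 at 1 h (edgeR adjusted p = 0.000907), and the value at 4 h was 0.17 ± 0.094 (edgeR adjusted p = 0.143). With MM401 it rose by 0.44 ± 0.095 at 1 h and 0.36 ± 0.107 at 4 h (edgeR adjusted p = 0.000789 and 0.0098). The 4 h call was lost without bicuculline replicate 2 (17.30, 21.23 and 16.99 CPM in the 3 replicates; edgeR adjusted p = 0.0683) or without water replicate 1 (edgeR adjusted p = 0.123), and with all 21 libraries (edgeR adjusted p = 0.0533). Nr1d1 overlaps Thra on the opposite strand by 1076 bases, 14.4% of its span. Thra held 73582 counts over all 21 libraries against 22457 for Nr1d1, so with the use of strand not stated the Nr1d1 values are uncertain.

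Nr1d2 (chr14:18204055-18239106, minus strand) was higher than water at 1 h and close to water at 4 h. In DMSO it stood at 51.2, 53.8 and 56.7 CPM in water, 63.8, 66.4 and 67.1 CPM at 1 h and 51.1, 53.7 and 57.8 CPM at 4 h. The 4 h libraries covered the range of the water libraries. The rise at 1 h was 0.29 ± 0.055 (edgeR adjusted p = 0.000191), the 4 h value was 0.01 ± 0.055 (95% interval -0.10 to 0.12), and the change from 1 h to 4 h was -0.28 ± 0.055 (edgeR adjusted p = 0.000334). In MM401 it rose by 0.16 ± 0.055 at 1 h (edgeR adjusted p = 0.0212), a call lost without bicuculline replicate 2 or water replicate 1 (edgeR adjusted p = 0.109 and 0.0848). Its MM401 values were 56.5, 60.7 and 57.5 CPM in water and 62.9, 67.9 and 64.6 CPM in bicuculline at 1 h, and 52.0 and 50.3 CPM against 52.3, 53.6 and 54.4 CPM at 4 h. The gap to water at 4 h was small, 0.06 ± 0.061. The change from 1 h to 4 h was -0.29 ± 0.055 (edgeR adjusted p = 0.00029). With all 21 libraries both 1 h calls of Nr1d2 were lost (edgeR adjusted p = 0.272 in DMSO and 0.6 in MM401). So were both calls from 1 h to 4 h (edgeR adjusted p = 0.303 and 0.324). The plain library total also lost the 1 h call in DMSO (edgeR adjusted p = 0.312).

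Bhlhe40 (chr6:108660628-108666925, plus strand) codes for DEC1, a repressor that competes with CLOCK and BMAL1 for E-boxes. It stood in DMSO at 30.9, 34.3 and 41.9 CPM in water, 56.2, 48.2 and 47.3 CPM at 1 h and 44.9, 40.2 and 40.4 CPM at 4 h. The highest water library, replicate 3, lay above 2 of the 3 libraries at 4 h. The rise was 0.50 ± 0.092 at 1 h (edgeR adjusted p = 0.000146). At 4 h it was 0.23 ± 0.092 (edgeR adjusted p = 0.0447), and this call was lost in 4 of the 6 fits that left out 1 library of either group: bicuculline replicate 1 or 3 or water replicate 1 or 2 (edgeR adjusted p = 0.175, 0.055, 0.227 and 0.16). It was also lost with only the groups compared and with all 21 libraries (edgeR adjusted p = 0.116 and 0.275). In MM401 it stood at 31.8, 34.9 and 31.9 CPM in water at 1 h and 28.0 and 31.1 CPM at 4 h, and at 47.1, 48.2 and 52.3 CPM and 49.3, 43.8 and 43.5 CPM in bicuculline at these times. Neither time overlapped with its water group. The rises were 0.58 ± 0.092 and 0.62 ± 0.105 (edgeR adjusted p = 3.41e-05 and 6.27e-05). Bhlhe40 shares 307 bases with 0610040F04Rik on the opposite strand, 4.87% of its span, and that gene held 5834 counts over all 21 libraries against 53262.

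Dbp (chr7:45705246-45710203, plus strand), the PAR bZIP activator whose RNA swings most over the day in many tissues, was the lowest of the 10 in counts. It ran from 5.66 to 7.79 CPM in DMSO with water, from 6.98 to 8.28 CPM at 1 h and from 7.22 to 7.84 CPM at 4 h, and these ranges overlapped. Its log2 difference from water was 0.17 ± 0.110 at 1 h (95% interval -0.06 to 0.40) and 0.12 ± 0.111 at 4 h. In MM401 at 4 h it was 8.25, 7.78 and 7.22 CPM against 6.10 and 6.34 CPM in water, a rise of 0.32 ± 0.127 (edgeR adjusted p = 0.0467) that was lost without any 1 of 4 libraries: bicuculline replicate 1 or 2 or either water library (edgeR adjusted p = 0.134, 0.0829, 0.217 and 0.148). It was also lost with no filter on low counts and with all 21 libraries (edgeR adjusted p = 0.0607 and 0.105). Dbp overlaps Sphk2 on the opposite strand over 742 bases, 14.97% of its span. Sphk2 held 8347 counts over all 21 libraries against 9696 for Dbp, so the Dbp values are uncertain in the same way.

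Clock (chr5:76209867-76304792, minus strand), the activator of the loop, had the smallest range of the 10, 0.21 on the log2 scale over the 7 group means. Its values in DMSO were 175, 163 and 153 CPM in water, 149, 141 and 142 CPM at 1 h and 158, 161 and 155 CPM at 4 h. The 1 h libraries lay below all water libraries. It fell by 0.18 at 1 h in DMSO (SE 0.052, edgeR adjusted p = 0.00703), a call lost without bicuculline replicate 3 or water replicate 2 (edgeR adjusted p = 0.0586 and 0.0581). In MM401 it was 167, 162 and 159.7 CPM in water and 145, 149 and 149.5 CPM in bicuculline at 1 h, and 166 and 169 CPM against 147, 153 and 143 CPM at 4 h. All bicuculline libraries there lay below all water libraries. It fell in MM401 by 0.14 at 1 h (SE 0.052, edgeR adjusted p = 0.0381) and by 0.18 at 4 h (SE 0.058, edgeR adjusted p = 0.0145). The first of these calls was lost without any 1 of the 6 libraries compared (edgeR adjusted p from 0.0679 to 0.126), and the other without bicuculline replicate 3 or water replicate 2 (edgeR adjusted p = 0.0557 and 0.0598). Both 1 h calls were lost with RLE size factors (edgeR adjusted p = 0.0531 in DMSO and 0.14 in MM401), with only the groups compared (edgeR adjusted p = 0.16 and 0.0576) and with all 21 libraries (edgeR adjusted p = 0.0657 and 0.125). DESeq2 did not call the 1 h value in MM401 either (adjusted p = 0.11). At 4 h in DMSO the value was -0.05 ± 0.052.

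**Figure D2:**
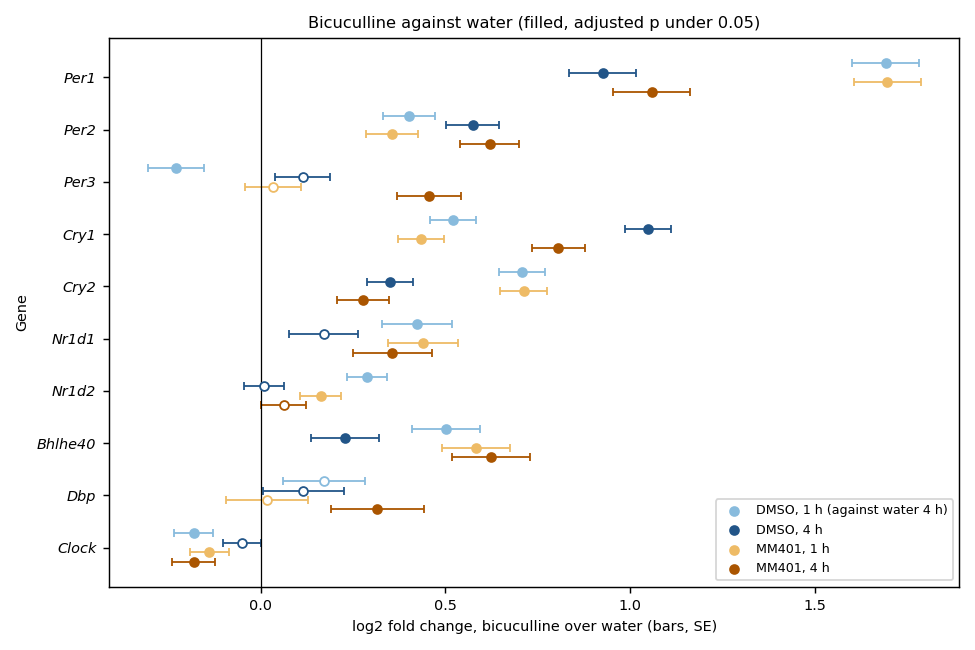
Log2 fold change of bicuculline over water (x axis) for each clock gene (y axis) in DMSO and MM401 at 1 h and 4 h; points are edgeR estimates, bars are SE, and filled points passed an adjusted p of 0.05. Per1 lies at 1.69 and 1.70 at 1 h and Cry1 at 1.05 at 4 h in DMSO, while Clock lies left of 0 in all 4.

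Counted together, 7 of the 10 genes rose and 2 fell at 1 h in DMSO; over all tested genes 20% rose and 24.5% fell. At 4 h in DMSO 5 rose and none fell, against 23.7% and 25.5% of all genes. In MM401, 7 rose and 1 fell at 1 h (18.1% and 21.8% of all genes), and 8 rose and 1 fell at 4 h (23.0% and 21.7%). The CPM of bicuculline and water libraries did not overlap for 7 higher and 2 lower clock genes at 1 h in DMSO (21.3% and 26.1% of all genes) and for 4 higher and none lower at 4 h (24.6% and 27.9%). In MM401 this held for 7 higher and 1 lower at 1 h (23.3% and 27.8%) and for 9 higher and 1 lower at 4 h (34.2% and 32.4%), where only 2 water libraries were compared. The median log2 change of the 10 was 0.41, 0.20, 0.39 and 0.41 in these 4 comparisons, against -0.04, -0.02, -0.0018 and 0.02 over all genes. Scaled by the plain library total, which moved the median of all genes to -0.23, -0.30, -0.21 and -0.06, Bhlhe40 at 4 h in DMSO turned to -0.054 and Nr1d2 at 1 h in MM401 to -0.052. With it 5 clock genes rose and 2 fell at 1 h in DMSO (1836 and 6818 of all genes), and 3 rose and 2 fell at 4 h (1820 and 7867 of all genes, against 4014 and 4330 with TMM). The 2 that then fell at 4 h in DMSO were Nr1d2 at -0.27 and Clock at -0.32 (edgeR adjusted p = 0.00404 and 8.69e-06). In MM401 it gave 4 higher and 1 lower at 1 h (1276 and 6541 of all genes) and 6 higher and 1 lower at 4 h (2794 and 4138). Under that scaling the calls of Nr1d1 and Nr1d2 at 1 h and Cry2 at 4 h in DMSO, of Per2 and Nr1d1 at 1 h in MM401 and of Nr1d1 and Dbp at 4 h in MM401 were also lost. Between 1 h and 4 h of bicuculline, Per1, Cry2, Nr1d1, Nr1d2 and Bhlhe40 fell and Cry1 and Per3 rose in DMSO, where 15.2% of all genes fell and 19.1% rose. The falls of Nr1d1 (-0.25 ± 0.094, edgeR adjusted p = 0.0406) and Bhlhe40 (-0.27 ± 0.091, edgeR adjusted p = 0.0234) were lost without some single libraries (Nr1d1: replicate 1 or 2 of either time; Bhlhe40: 1 h replicate 1 or 4 h replicate 2 or 3). In MM401, Per1, Cry2 and Nr1d2 fell and Cry1 rose, against 16.0% and 17.5% of all genes. The plain total split the genes called between the times into 2015 higher and 3131 lower in DMSO and 3603 and 1943 in MM401. The comparisons at 1 h and 4 h in DMSO share their water libraries, so their counts are not independent of each other.

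The choice of water control bears on the 1 h comparison. In MM401, where both times of water were measured, 0 of the 10 genes passed the threshold between water at 4 h and at 1 h, against 0.867% of all genes (147 genes by edgeR), and 3 had an unadjusted p under 0.05: Per3 at -0.23, Nr1d2 at -0.19 and Dbp at -0.33 (edgeR adjusted p = 0.277, 0.198 and 0.314). When water at 4 h replaced water at 1 h as the reference for bicuculline at 1 h in MM401, an alternative added after the data were seen, all 10 genes passed the threshold, 9 higher and 1 lower. Per3 then stood at 0.27 and Dbp at 0.35 (edgeR adjusted p = 0.0166 and 0.0337), while Per1 moved to 1.73 only. Nr1d2 moved from 0.16 to 0.35 (edgeR adjusted p = 0.000122). The 1 h values in DMSO, the fall of Per3 and the rise of Nr1d2 among them, rest on water at 4 h as their reference.

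By edgeR on the 20 libraries, MM401 made no difference past the threshold in any clock gene, in water or in bicuculline. In water DESeq2 called 1, Per3, and edgeR without DMSO water 4 h replicate 1 called 2, Per3 and Bhlhe40. In water at 4 h, 0 of 10 were called, against 0.0826% of all genes (14 genes by edgeR, with 2194 at an unadjusted p under 0.05). The members' log2 differences of MM401 from DMSO there ran from -0.35 (Per3) to 0.09 (Cry1), and their 95% intervals reached from -0.53 to 0.23. With bicuculline at 1 h, 0 of 10 were called, against 0.00590% of all genes (1 gene, with 540 at an unadjusted p under 0.05), and the values ran from -0.04 (Bhlhe40) to 0.15 (Per3), with intervals from -0.23 to 0.31. Per3 was higher there with MM401 without overlap of the libraries (39.8, 41.9 and 42.0 against 34.5, 38.6 and 38.6 CPM), as were 3.25% of all genes. With bicuculline at 4 h, 0 of 10 were called, as of all genes (0%, with 1309 at an unadjusted p under 0.05), and the values ran from -0.16 (Cry1, edgeR adjusted p = 0.639) to 0.12 (Bhlhe40), with intervals from -0.28 to 0.31. Cry1 and Clock were lower there with MM401 without overlap (Cry1 at 77.7, 80.9 and 77.7 against 94.6, 84.3 and 84.4 CPM, Clock at 147, 153 and 143 against 158, 161 and 155 CPM), as were 11.3% of all genes. The Per1 difference after 1 h of bicuculline was 0.02 ± 0.087 (95% interval -0.16 to 0.20).

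Per3 in water came closest to a difference between MM401 and DMSO. Its values were 36.8 and 31.7 CPM with MM401 and 40.0, 46.0 and 45.0 CPM with DMSO, which did not overlap; over all genes 14.5% were lower without overlap. The unadjusted p was 0.000479 and the edgeR adjusted p 0.129, and DESeq2 gave -0.33 with an adjusted p of 0.0367. The count of genes called depended on 1 library, DMSO water 4 h replicate 1: without it 1272 genes were called in place of 14, Per3 at -0.41 (edgeR adjusted p = 0.00866) and Bhlhe40 at -0.36 (edgeR adjusted p = 0.0296) among them. With all libraries Bhlhe40 was at -0.27 ± 0.104 (edgeR adjusted p = 0.285).

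Whether the bicuculline response at 4 h differed between MM401 and DMSO was tested as an interaction. By edgeR 0 of the 10 genes, and 0% of all genes, passed the threshold, with 2552 genes at an unadjusted p under 0.05; DESeq2 called 436 genes. The response was 0.40 ± 0.139 larger in MM401 for Bhlhe40, 0.34 ± 0.114 larger for Per3 (edgeR adjusted p = 0.237 and 0.229). For Cry1 the interaction was -0.24 ± 0.093 (edgeR adjusted p = 0.253). Without DMSO water 4 h replicate 1 edgeR called 1551 genes, among them Bhlhe40 at 0.49 and Per3 at 0.40 (edgeR adjusted p = 0.0227 and 0.0304). For Per1 the interaction was 0.13 ± 0.135 (95% interval -0.15 to 0.41).

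**Figure D3:**
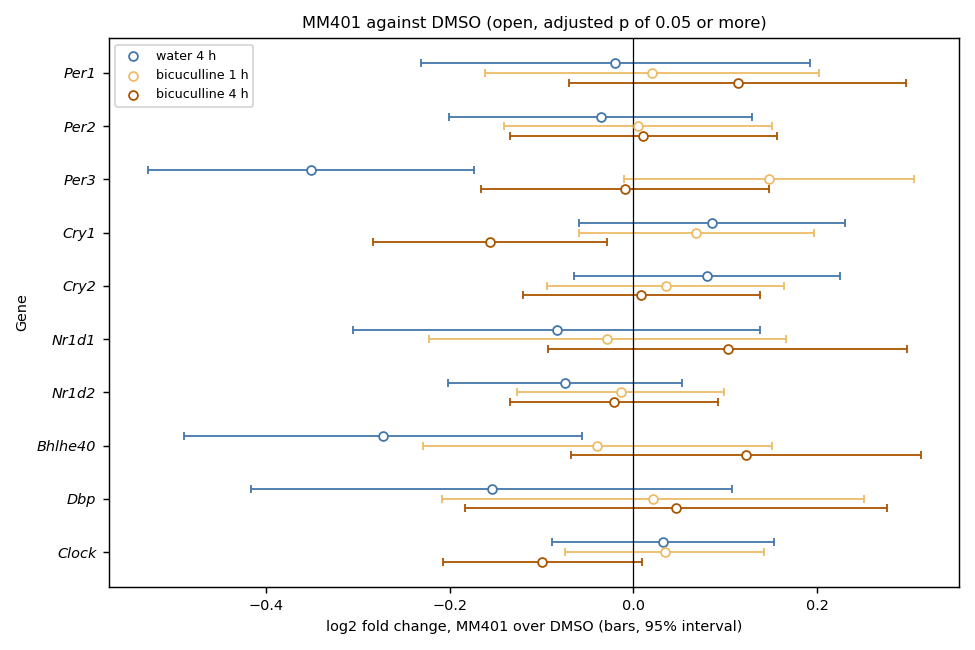
Log2 fold change of MM401 over DMSO (x axis) for each clock gene (y axis) in water at 4 h and bicuculline at 1 h and 4 h; points are edgeR estimates and bars 95% intervals, and all points are open because none passed an adjusted p of 0.05. The values run from -0.35 (Per3, water) to 0.15 (Per3, bicuculline 1 h).

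The other transcription factors of the loop were followed as a list of 11: Arntl, Arntl2, Npas2, Bhlhe41, Rora, Rorb, Nfil3, Tef, Hlf, Ciart and Timeless. In DMSO, 5 rose and 1 fell at 1 h (20% and 24.5% of all genes) and 6 rose and 2 fell at 4 h (23.7% and 25.5%). In MM401, 5 rose and 1 fell at both times, against 18.1% and 21.8% of all genes at 1 h and 23.0% and 21.7% at 4 h. Nfil3, the repressor that competes with DBP for D-boxes, went from 18.1 ± 1.75 CPM in DMSO with water to 93.4 ± 6.24 CPM at 1 h and 101 ± 8.98 CPM at 4 h (SD, n = 3). It rose by 2.37 ± 0.097 at 1 h and by 2.47 ± 0.097 at 4 h (edgeR adjusted p = 1.11e-13 and 6.53e-14), and in MM401 it was 2.14 and 2.30. Ciart, a repressor of CLOCK and BMAL1 also called Chrono, rose by 1.46 ± 0.136 at 1 h and 0.83 ± 0.138 at 4 h in DMSO (edgeR adjusted p = 1.77e-08 and 3.2e-05). It lies wholly within C920021L13Rik on the opposite strand, which held 13019 counts to its 5109, so its value is uncertain. Rorb, a nuclear receptor that activates Arntl, rose by 1.08 ± 0.073 at 1 h and by 0.34 ± 0.072 at 4 h (edgeR adjusted p = 8.89e-11 and 0.000429), the 4 h call being lost with the plain total (0.063, edgeR adjusted p = 0.505). The 1 h value has water at 4 h as its reference: in MM401 Rorb rose by 0.57 ± 0.072 over water at 1 h (edgeR adjusted p = 1.69e-06) and stood 1.26 above water at 4 h, and water itself was lower at 4 h than at 1 h, at -0.70 (edgeR adjusted p = 9.54e-05). Arntl2, a BMAL1 paralog, fell at 4 h by 0.97 in DMSO and by 1.23 in MM401 (edgeR adjusted p = 0.000127 and 3.02e-05). Arntl itself, singled out after its values were seen because it codes for BMAL1, stood at 99.7 ± 2.97 CPM in DMSO with water, 90.6 ± 4.66 CPM at 1 h and 109 ± 10.1 CPM at 4 h, and was not called in any of the 4 comparisons (edgeR adjusted p from 0.1 to 0.363).

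The enzymes that act on PER and CRY proteins made a list of 16. In DMSO 7 rose and 4 fell at 1 h (20% and 24.5% of all genes) and 8 rose and 2 fell at 4 h (23.7% and 25.5%). In MM401 7 rose and 1 fell at 1 h (18.1% and 21.8%) and 6 rose and 2 fell at 4 h (23.0% and 21.7%). Csnk1a1, a casein kinase 1 gene, rose by 0.53 ± 0.068 at 1 h and by 0.54 ± 0.068 at 4 h in DMSO (edgeR adjusted p = 1.82e-06 and 1.06e-06). Both calls were lost with all 21 libraries (edgeR adjusted p = 0.0598 and 0.0687). Fbxl21, a ligase subunit that binds CRY proteins, rose by 0.68 ± 0.118 and 0.71 ± 0.118 from 3.0 ± 0.252 CPM in water (edgeR adjusted p = 7.23e-05 and 3.14e-05). In MM401 the Fbxl21 rise was 0.32 at 1 h and 0.58 at 4 h (edgeR adjusted p = 0.0313 and 0.00141). Its 1 h call was lost in 5 of the 6 fits without 1 library (all but bicuculline replicate 1; edgeR adjusted p from 0.051 to 0.0899) and with the plain total (edgeR adjusted p = 0.561), and the 4 h call without water replicate 1 (edgeR adjusted p = 0.0734). Fbxw11, one of the beta-TrCP ligase subunits that recognise phosphorylated PER, rose by 0.57 ± 0.060 at 4 h and by 0.27 ± 0.060 at 1 h (edgeR adjusted p = 5.62e-08 and 0.000716); with the plain total the 1 h call was lost (0.082, edgeR adjusted p = 0.27). Usp2, a deubiquitinase and itself a clock output, rose by 0.64 ± 0.075 at 1 h and by 0.30 ± 0.075 at 4 h (edgeR adjusted p = 4.93e-07 and 0.00201); with the plain total the 4 h call was lost (0.021, edgeR adjusted p = 0.867).

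CREB, its relatives, coactivators and their kinases, the input from activity to Per1 and Per2, made a list of 12. In DMSO 5 rose and 3 fell at 1 h (20% and 24.5% of all genes) and 8 rose and 1 fell at 4 h (23.7% and 25.5%). In MM401 5 rose and 2 fell at 1 h (18.1% and 21.8%) and 6 rose and 3 fell at 4 h (23.0% and 21.7%). Sik1, Sik2 and Sik3 code for salt-inducible kinases, which hold the CRTC coactivators out of the nucleus. Sik1 rose from 11.2 ± 1.25 CPM in DMSO with water to 34.3 ± 1.44 CPM at 1 h and 24.8 ± 0.36 CPM at 4 h (edgeR adjusted p = 1.25e-12 and 2.69e-10). Sik2 rose from 219.7 ± 40.9 CPM to 630.2 ± 77.8 CPM at 1 h and 724 ± 13.5 CPM at 4 h (edgeR adjusted p = 3.51e-09 and 4.06e-10). Sik3 rose by 0.72 ± 0.081 and 0.87 ± 0.081 (edgeR adjusted p = 3.16e-07 and 1.14e-08). Crem, which codes for CREB-like activators and the repressor ICER, rose by 1.26 ± 0.065 and 1.17 ± 0.064 (edgeR adjusted p = 9.51e-13 and 4.12e-12). On the opposite strand Crem shares 1175 bases with Gm6225 (23562 counts over all 21 libraries against 128711) and Sik2 shares 1430 bases with Ppp2r1b (18577 against 623569). By edgeR on the 20 libraries, 0 of the 39 genes of the 3 lists were called between MM401 and DMSO in water, at 1 h or at 4 h of bicuculline, or in the interaction, with 8, 1, 8 and 12 at an unadjusted p under 0.05. DESeq2 called 0 in the first 3 and 5 in the interaction (Npas2, Rora, Btrc, Sik2 and Sik3). Without DMSO water 4 h replicate 1, edgeR called 5 in water (Npas2, Bhlhe41, Tef, Csnk1d and Prkaa2) and 6 in the interaction (Npas2, Tef, Btrc, Prkaa2, Sik2 and Sik3).

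**Figure D4:**
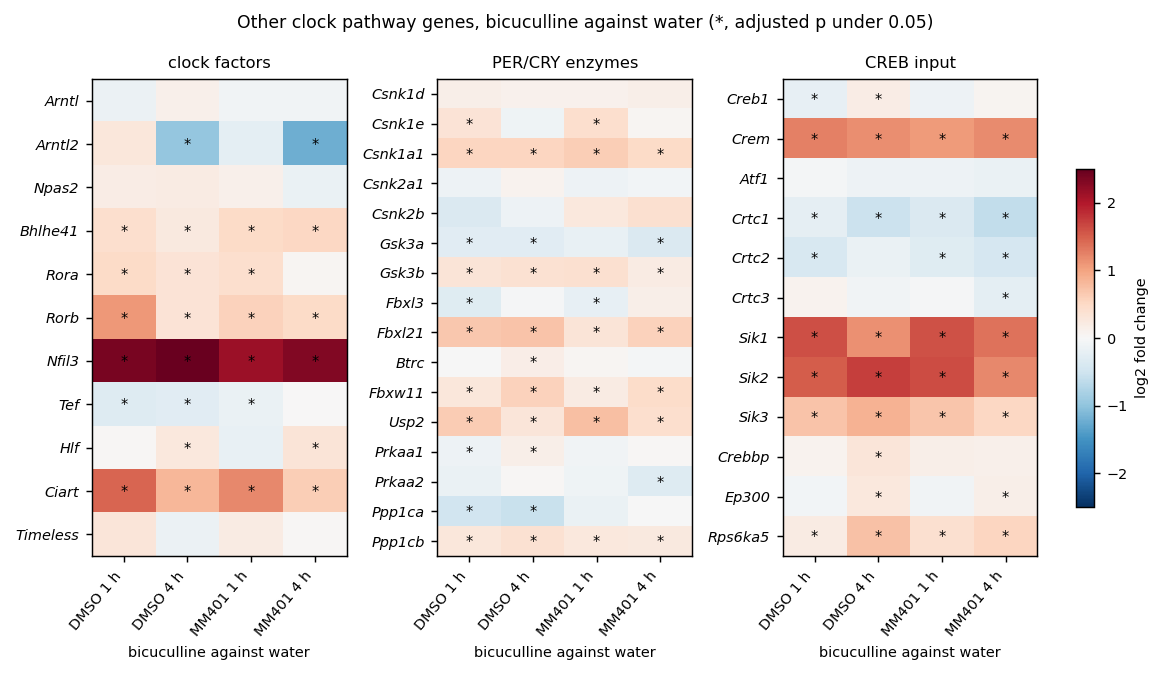
Log2 fold change of bicuculline over water (colour, blue lower and red higher) of the other clock genes, the PER and CRY enzymes and the CREB genes (rows) in the 4 comparisons (columns); an asterisk marks an adjusted p under 0.05 by edgeR. Nfil3, at 2.14 to 2.47, is the darkest row, and Sik1, Sik2 and Crem exceed 1 in every column.

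The patterns over the 7 group means were compared as a description, with the root mean square difference of centred log2 CPM as the measure of likeness, over 11848 genes. Per1 spanned 1.73 on the log2 scale, Cry1 1.05, Bhlhe40 0.77, Cry2 0.74 and Per2 0.62, and the other 5 less. Among the members, Nr1d1 and Bhlhe40 were closest (0.0943), then Nr1d2 and Dbp (0.103) and Cry2 and Nr1d1 (0.111), whereas Per1 was farthest from Clock (0.794). Per1 and Cry1, high at different times, differed by 0.547. Over all genes, Fbxo33 (0.0772) and Gla (0.0893) were most like Per1, Fhl1 (0.0319) and Fam174a (0.0354) most like Per2, and Paqr9 (0.0417) and Morf4l1b (0.0423) most like Per3. Txnl1 (0.0319) and Akap13 (0.0401) were most like Cry1, and Zbtb11 (0.0267) and Hnrnpa2b1 (0.0275) most like Cry2. Npy1r (0.0280) was nearest to Nr1d1, Cfap44 (0.0261) to Nr1d2, Gjc1 (0.0394) to Dbp, Cycs (0.0359) to Bhlhe40 and Vps54 (0.0155) to Clock. The 7 groups share libraries of 1 experiment, and no p-value goes with these distances.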

How the data were processed

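BrU-seq was measured in 21 libraries of 7 groups. The deposited values are raw read counts per gene, made by the authors with featureCounts per the file headers, on mm10 with the whole gene span as the feature. Bowtie2, UMI-tools, deepTools and DESeq2 are named in the submitters' processing notes; versions, strand use and the treatment of reads with several positions are not given in the sources used here. Groups and replicate numbers came from the labels. The members and gene lists were chosen with earlier results of these data known.

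The count tests used edgeR 4.0.16 (R 4.3.3, limma 3.58.1; quasi-likelihood, robust, 1 mean per group) on 20 libraries of 49886348 to 87939384 counts, after filterByExpr (minimum count 10, minimum total 15), TMM scaling and Benjamini-Hochberg adjustment over 16959 genes, with a threshold of 0.05. SE is the size of the log2 fold change over the square root of F, and intervals are 95%. The common biological coefficient of variation was 8.77%. MM401 water 4 h replicate 3 was left out for its 316741 counts, 0.503% of the median. Of the genes, 412 are listed at more than 1 position. P-values measure the spread between replicates that the labels call biological.

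Same-numbered libraries correlated in their deviations from group means at -0.229 to 0.241 (median 0.0885), with 10 of 27 correlations over 0.1. Of 7 comparisons with 3 pairs, only MM401 against DMSO at 4 h of bicuculline had all 3 over 0.1. There the replicate block left 0 genes and 0 clock genes called.

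Alternatives were RLE size factors, the plain library total, no filter on low counts, all 21 libraries, the replicate block, only the groups compared, DESeq2 1.42.0, and leaving out each library in turn. The list of clock factors was fixed with 12 genes; 1 is not reported here, which leaves 11. From each list the 4 genes with the largest change among those called in any bicuculline comparison were named, and for each member the 2 genes most like it, among genes of at least 2 CPM (prior count 2, predicted genes and small RNAs left out). Table starts lay 1 base below those of RefSeq for 13165 of 16414 genes with equal ends.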

Additional observations from a re-analysis of the deposited data

Results flagged for a closer look

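In the library left out for its low total (MM401 water 4 h, replicate 3, 316741 counts), Nr1d2 stood at 81 counts, or 256 CPM of the plain total (95% Poisson interval 203 to 318, counting error only). The 8 water libraries of the fit held 52.2 to 66.8 by the same measure. This value was singled out because it lies above the control libraries in a library that the main comparisons left out; it enters only the alternative with all 21 libraries. Clock had 68 counts there (215 CPM, interval 167 to 272) and Cry1 22 counts (69.5 CPM, interval 43.5 to 105), both intervals reaching the range of the water libraries. Below the water libraries lay Cry2 with 8 counts (25.3 CPM, interval 10.9 to 49.8, against 74.7 to 90.6 in water), Per2 with 6 counts (18.9 CPM, interval 6.95 to 41.2, against 50.1 to 63.8) and Per1 with 1 count (interval 0.0799 to 17.6 CPM, against 27.1 to 35.0). Per3 had 7 counts (22.1 CPM, interval 8.89 to 45.5, which reaches the 32.9 to 52.3 in water). Nr1d1, Dbp and Bhlhe40 had 0 counts, for which the same interval reaches 11.6 CPM and the limit of 3 counts is 9.47 CPM. In water Nr1d1 held 13.6 to 19.2 CPM and Bhlhe40 29.1 to 48.4, above both limits, and Dbp 5.77 to 9.01, below them.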

How the results depend on the processing

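Per1, Cry1, Cry2 and Bhlhe40 at 1 h and Per1, Per2 and Cry1 at 4 h kept their direction and their call in DMSO and MM401 under every alternative run. The count of clock genes called ran from 6 to 9 at 1 h in DMSO, 4 to 5 at 4 h, 5 to 10 at 1 h in MM401 and 6 to 9 at 4 h. With the plain library total, log2 changes turned sign for Dbp at 1 h in DMSO (-0.025); for Per3 (-0.17), Nr1d1 (-0.11), Nr1d2 (-0.27), Dbp (-0.17) and Bhlhe40 (-0.054) at 4 h in DMSO; for Per3 (-0.18), Nr1d2 (-0.052), Dbp (-0.19) and Fbxw11 (-0.011) at 1 h in MM401, where 5 clock genes were called; for Nr1d2 at 4 h in MM401 (-0.012); and for Dbp (0.039) and Clock (0.074) from 1 h to 4 h in MM401. That scaling called 4 genes between MM401 and DMSO in water. It moved the medians of all genes, so these values are relative to the shifts given above. With all 21 libraries Nr1d2 moved to -0.011 at 4 h in DMSO, -0.21 at 4 h in MM401 and 0.063 between the water times; genes called numbered 3745 (4 clock genes) and 3646 from 1 h to 4 h in DMSO and MM401, 0 between MM401 and DMSO in water and 19 between the water times; the calls of Nr1d2 at 1 h and from 1 h to 4 h were lost in DMSO and MM401, as were those of Per3 and Clock at 1 h and Bhlhe40 at 4 h in DMSO, of Clock at 1 h and Nr1d1 and Dbp at 4 h in MM401, of Nr1d1 and Bhlhe40 from 1 h to 4 h in DMSO (edgeR adjusted p = 0.12 and 0.129), of Csnk1a1 at 1 h and 4 h in DMSO (edgeR adjusted p = 0.0598 and 0.0687), of Rorb at 4 h in DMSO and at both times in MM401 (edgeR adjusted p = 0.4, 0.146 and 0.0511) and of Fbxw11 at 1 h in MM401 (edgeR adjusted p = 0.0647). With only the groups compared, Nr1d2 at 4 h in DMSO was -0.011, and 0 and 328 genes were called in those same comparisons of water; the calls of Per3 and Clock at 1 h and Bhlhe40 at 4 h in DMSO and of Clock at 1 h in MM401 were lost, which left 7 clock genes higher and 0 lower at 1 h in both, and Per3 from 1 h to 4 h in MM401 was called (edgeR adjusted p = 0.044). DESeq2 called 162 genes (1 clock gene, Per3) between MM401 and DMSO in water, 14 at 1 h and 7 at 4 h of bicuculline, 275 between the water times and 436 in the interaction. Causes of these changes were not tested.

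Leaving out 1 library at a time gave Nr1d2 -0.040 to 0.049, Dbp -0.0028 to 0.18 and Clock -0.13 to 0.00076 at 4 h in DMSO; Dbp -0.072 to 0.081 and Per3 -0.046 to 0.11 at 1 h in MM401; and Clock -0.030 to 0.021 and Dbp -0.095 to 0.038 from 1 h to 4 h in MM401. Fbxw11 at 1 h in MM401 was not called without bicuculline replicate 2 (edgeR adjusted p = 0.0553), nor Ciart at 4 h in MM401 without water replicate 2 (edgeR adjusted p = 0.0817). Genes called ran from 0 to 1272 (0 to 2 clock genes) between MM401 and DMSO in water, 0 to 2 at 1 h of bicuculline, 14 to 140 between the water times and 0 to 1551 (0 to 2 clock genes) in the interaction; both high ends came without DMSO water 4 h replicate 1. The group of 2 MM401 water libraries was reduced to 1 in such fits, which then takes its spread from the other groups. Outside 1 comparison, same-numbered libraries did not all correlate over 0.1. The titles number the libraries of each replicate consecutively. The replicate block called 4 genes between MM401 and DMSO at 1 h of bicuculline in place of 1. With the block, 9 and 6 clock genes were called from 1 h to 4 h in DMSO and MM401 in place of 7 and 4, with Per2 (edgeR adjusted p = 0.0305) and Clock (0.0472) added in DMSO and Per2 (0.0299) and Per3 (0.0409) in MM401, and Bhlhe40 at 4 h in DMSO (edgeR adjusted p = 0.0533) and Dbp at 4 h in MM401 (edgeR adjusted p = 0.0569) were not called. Of 41 differences not called and not given singly, 29 changed sign under some alternative and 0 were called. Each clock gene held at least 307 counts in every library of the fit. A group had only 2 or 3 libraries, and counting error was not separated from the spread between them gene by gene.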
